A study of Homo sapiens with 27 samples.

Results

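The 37 genes of the human mitochondrial genome were followed through 27 libraries of MCF10DCIS.com cells given calcium oxalate crystals. The members are every gene whose symbol starts with MT-, 37 of the 60683 genes in the deposited tables. They comprise 13 messenger RNAs, 2 ribosomal RNAs and 22 transfer RNAs. MCF10DCIS.com, labelled breast premalignant, is a human cell line derived from the MCF10A family that serves to model ductal carcinoma in situ. Every flask held 500000 seeded cells left for 6 h, and treated flasks then received crystals at 0.1 mg/mL. How long the crystals were left before collection is not stated in the labels. There were 7 control libraries and 4 libraries for each of 5 crystal forms. COM is calcium oxalate monohydrate as plates. The other forms are calcium oxalate dihydrate (COD): DB is dumbbells, SPH is spherical, TK is a thick bipyramid and TN a thin bipyramid. RNA came from thawed samples and was selected for polyA, so every level below is that of polyA-selected RNA. Whether libraries of 1 group are separate cultures is not labelled, and p-values therefore measure only the spread between libraries, which may be technical. In bulk samples, fewer cells of a type and less RNA per cell cannot be told apart.

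The serial numbers in the deposited names form 3 runs, called library sets here, of 10, 12 and 5 libraries. The labels do not call them batches. Controls A and B were in set 1, controls C to F in set 2 and control G in set 3. COM, DB, SPH and TN each had libraries A and B in set 1, C in set 2 and D in set 3. All 4 TK libraries were in set 2. Library totals ran from 13115669 (SPH D) to 38672521 (TN B) expected counts, with a median of 19251257. CPM are counts relative to library size. For the markers here, and for control levels per kilobase below, that is the plain library total. CPM of tested genes and of nuclear subunits are relative to the TMM-adjusted library size. The 7 basal mammary epithelial markers summed to between 6122 and 8192 CPM, so the labelled epithelial origin was seen in every library. TN B stood apart. Its 10 liver markers summed to 1416 CPM against 54.5 to 195 in the others, led by ALB at 653 CPM. Its 4 leukocyte markers summed to 65.1 CPM against at most 20.7. That sum was mostly LYZ, which reached 58.1 CPM. The other leukocyte markers reached at most 20.5 (CD68), 0.178 (PTPRC) and 0.0716 CPM (CD3E) in any library. Fibroblast, endothelial and erythroid markers summed to at most 13.8, 14.6 and 0.433 CPM in any library.

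The mitochondrial genome is a small circle transcribed on each strand into long precursors that span many genes. Most mRNAs and rRNAs are flanked by tRNAs, whose excision releases them, and a poly(A) tail is then added to most mRNAs. All 13 proteins are subunits of the respiratory chain or of ATP synthase, where they assemble with proteins encoded in the nucleus, and the rRNAs and tRNAs serve the ribosome inside the organelle that makes them.

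The 3′ ends of the mRNAs are printed because several annotated genes rely on the poly(A) tail for their stop codon. Each line gives the last 24 bases of a gene in GENCODE 29 on GRCh38, 5′ to 3′, with the stop codon, or the bases left after the last whole codon, in capitals.
MT-ND1 (chrM:4239-4262, plus strand): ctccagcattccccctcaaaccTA
MT-ND2 (chrM:5488-5511, plus strand): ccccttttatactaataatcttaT
MT-CO1 (chrM:7422-7445, plus strand): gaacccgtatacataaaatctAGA
MT-CO2 (chrM:8246-8269, plus strand): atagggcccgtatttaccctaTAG
MT-ATP8 (chrM:8549-8572, plus strand): cattcattgcccccacaatccTAG
MT-ATP6 (chrM:9184-9207, plus strand): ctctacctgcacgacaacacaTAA
MT-CO3 (chrM:9967-9990, plus strand): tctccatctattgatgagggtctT
MT-ND3 (chrM:10381-10404, plus strand): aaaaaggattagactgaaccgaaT
MT-ND4L (chrM:10743-10766, plus strand): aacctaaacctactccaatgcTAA
MT-ND4 (chrM:12114-12137, plus strand): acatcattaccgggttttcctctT
MT-ND5 (chrM:14125-14148, plus strand): ctaaccctactcctaatcacaTAA
MT-ND6 (chrM:14149-14172, minus strand): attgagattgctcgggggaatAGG
MT-CYB (chrM:15864-15887, plus strand): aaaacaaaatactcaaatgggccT
Of the 13, 5 end in a lone T and 1 in TA. In these the annotated gene holds no complete stop codon, and the tail is known to complete it. The others end in TAA (3), TAG (2), AGA (1) or AGG (1). MT-ND6 alone among the mRNAs lies on the minus strand.

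Some neighbours share bases, so their reads cannot always be told apart. MT-ATP8 and MT-ATP6, both subunits of ATP synthase, overlap by 46 bases, and MT-ND4L and MT-ND4, both subunits of complex I, overlap by 7 bases. The shared bases are in capitals, with 12 bases on each side.
MT-ATP8 and MT-ATP6 (chrM:8515-8584, plus strand): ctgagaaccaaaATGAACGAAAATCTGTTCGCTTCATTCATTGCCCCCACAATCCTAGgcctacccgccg
MT-ND4L and MT-ND4 (chrM:10748-10778, plus strand): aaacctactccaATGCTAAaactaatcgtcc
The capitals run from the start codon of the downstream gene to the stop codon of the upstream gene.

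Levels of the 13 mRNAs and 2 rRNAs in the 7 controls ranged from 647 to 8088 when counts were set against gene length (CPM per kilobase, kb). MT-CO1, the catalytic core of cytochrome c oxidase (complex IV), was highest at 8088 ± 2778 CPM per kb (SD, n = 7). MT-CO2, which takes electrons from cytochrome c, followed at 7072 ± 2792, then MT-ND4 of complex I at 4749 ± 1821 and MT-CO3 of complex IV at 4074 ± 1392. MT-ATP6, the proton channel subunit of ATP synthase, stood at 3564 ± 1215 and MT-RNR2, the 16S rRNA of the large ribosomal subunit, at 3488 ± 1233. The middle of the order held MT-ND2 at 2379 ± 921, MT-CYB (cytochrome b, the core of complex III) at 1929 ± 689 and MT-ND1 at 1701 ± 703 CPM per kb. The lowest mRNAs were MT-ND4L (1602 ± 650.4), MT-ND3 (1503 ± 418), MT-ATP8 (1131 ± 237), MT-ND5 (1130 ± 407) and MT-ND6 (888 ± 163). MT-RNR1, the 12S rRNA of the small ribosomal subunit, was lowest at 647 ± 209.5 CPM per kb.

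No neighbouring pair in that order differed beyond the control SDs. Within single libraries the order was steadier. MT-CO1 lay above MT-CO2 in 25 of 27 libraries, MT-CO2 above MT-ND4 in 27 and MT-ND2 above MT-CYB in 27. The order of MT-ND4L over MT-ND3 held in 11 of 27, and that of MT-ATP8 over MT-ND5 in 10 of 27.

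**Figure D1:**
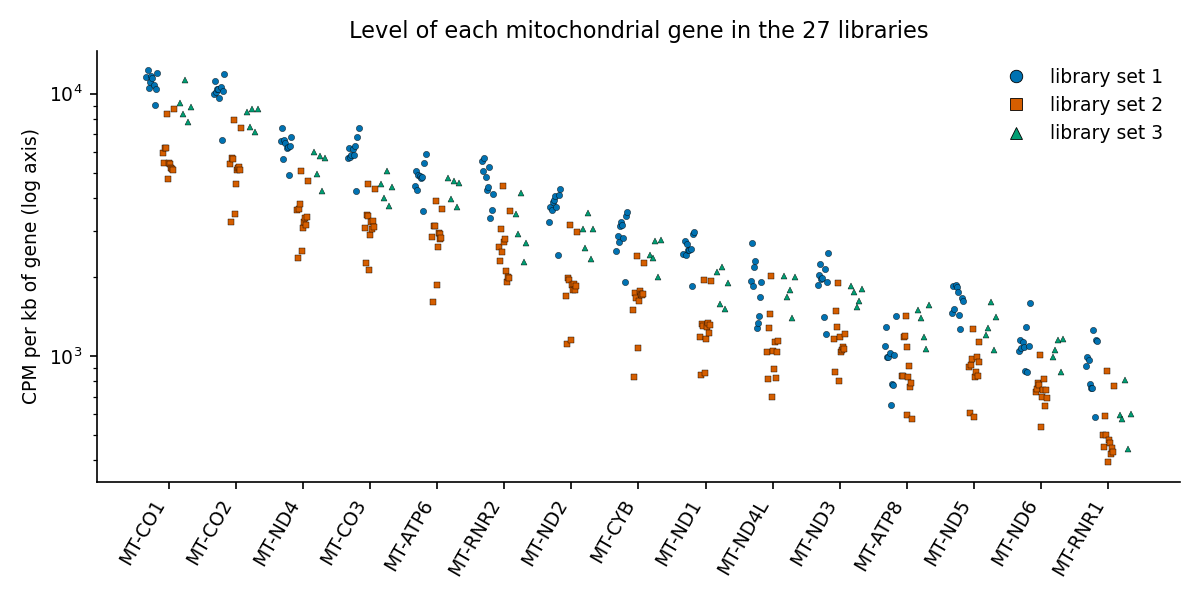
Level of the 13 mRNAs and 2 rRNAs in CPM per kb of gene length (log axis) in each of the 27 libraries, coloured by library set. MT-CO1 is highest, with a control mean of 8088, MT-RNR1 is lowest at 647, and set 2 libraries lie low for most genes. The points are scaled to the TMM-adjusted library size and these 2 means to plain library totals.

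The deposited TPM values give another order. MT-ATP8, a gene of 207 bases, ranked first at 15081 ± 5394 TPM in the controls, above MT-CO2 at 12985 ± 5519 and MT-CO1 at 11426 ± 3871 TPM. MT-ND4L, of 297 bases, ranked 4th at 7754 ± 4434 TPM. The effective length by which TPM divides was only 7.32 to 29.91 nt for MT-ATP8, a ratio of 4.09 between libraries. Levels below are therefore counts, scaled to CPM and not divided by length.

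The 22 tRNA genes were almost without counts. They are 59 to 75 bases long and have an effective length of 0 in every library. Together they held 201 expected counts of 626451674, and no library held more than 29 (DB D). The 8 minus-strand tRNA genes held 192 of the 201 counts (95.5%), and each had at least 1 count. The 14 plus-strand tRNA genes held 9 counts on 5 genes. The other 9 were at 0 in every library, and a count of 0 allows up to 3 counts, or 0.00479 CPM of all counts together, for counting error alone. The strand setting of the counting is not stated, so reads of a minus-strand tRNA and of a precursor across it on the plus strand cannot be told apart. The same limit holds for every value of MT-ND6, the only mRNA on the minus strand.

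MT-TA, the alanine tRNA, was the only tRNA gene to reach 10 counts in any library. It had 92 counts over 23 libraries, the highest 15 in DB D, 9 in TN C and 8 in TN B. MT-TS1, a serine tRNA with 35 counts in 18 libraries, was picked out after its values were seen because its 3′ end is the base after the end of MT-CO1, on the other strand. MT-TW, the tryptophan tRNA after MT-ND2, had 0 counts and is printed as a contrast. They are shown whole, from the GENCODE 29 transcripts and on their own strand, with no part in capitals.
MT-TA (chrM:5587-5655, minus strand): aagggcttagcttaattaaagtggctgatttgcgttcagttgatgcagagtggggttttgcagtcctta
MT-TS1 (chrM:7446-7514, minus strand): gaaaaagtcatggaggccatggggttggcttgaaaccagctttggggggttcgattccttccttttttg
MT-TW (chrM:5512-5579, plus strand): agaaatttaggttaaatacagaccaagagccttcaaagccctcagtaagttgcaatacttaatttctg
No tRNA gene passed the low-count filter, so none entered a test.

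The 13 mRNAs together took 2.16% (control D) to 6.21% (TN B) of a library's counts. Most set 2 libraries lay low whatever they were given. In set 1 the controls held 5.20% and 6.12%, COM 4.88% and 5.49%, DB 5.81% and 5.51%, SPH 5.22% and 4.17%, and TN 5.53% and 6.21%. In set 2 the controls held 3.03%, 2.16%, 3.21% and 3.28%. The TK libraries held 2.91%, 3.02%, 2.82% and 2.98%, and TN C 4.15%, COM C 4.42%, SPH C 2.85% and DB C 2.20%. Set 3 held 4.66% for control G, 4.14% for COM D, 5.06% for DB D, 3.78% for SPH D and 4.65% for TN D. In set 1 every library lay above 4%, and in set 2 only COM C and TN C did.

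**Figure D2:**
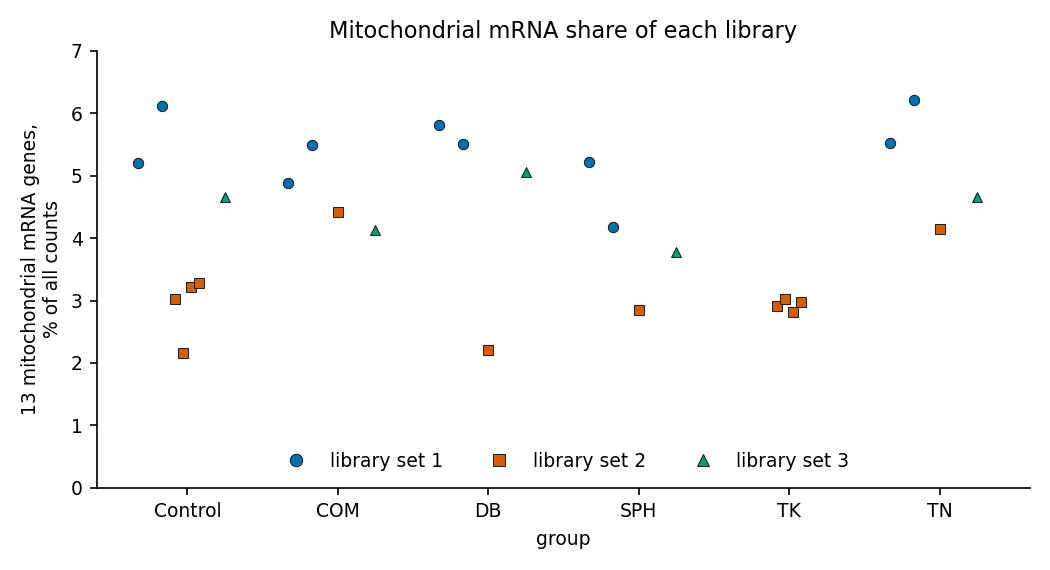
Summed counts of the 13 mitochondrial mRNAs as a percentage of each library's total, by group, with colour and marker giving the library set. The 4 TK libraries sit at 2.82% to 3.02% within the range of the set 2 controls (2.16% to 3.28%), and the set 1 libraries lie between 4.17% and 6.21%.

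With each library compared only with controls of its own set, no form passed the test against the controls in mRNA share. The set-adjusted log2 difference was 0.21 for TN (exact permutation p = 0.2, adjusted p = 0.583 over the 5 forms), 0.12 for COM (exact p = 0.417, adjusted 0.667) and 0.02 for TK (exact p = 1). It was -0.11 for DB (exact p = 0.533, adjusted 0.667) and -0.19 for SPH (exact p = 0.233, adjusted 0.583). All tests were two-sided, with a smallest possible exact p of 0.0167, or 0.0286 for TK. Adjusted over 5 forms, 1 form alone could not pass 0.05 in this design. Within sets 1, 2 and 3 the differences were -0.12, 0.62 and -0.17 for COM, 0.00, -0.39 and 0.12 for DB, -0.27, -0.01 and -0.30 for SPH, and 0.05, 0.53 and -0.00 for TN. The largest values for COM, DB and TN each came from the lone set 2 library. With the set ignored, TN had 0.44, COM 0.33, DB 0.22, SPH 0.07 and TK -0.35, so those of DB, SPH and TK changed sign, and none was called.

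Each gene was then tested against the controls with edgeR's quasi-likelihood F-test, with a term for library set. Of the 37 members, 15 passed the low-count filter, namely the 13 mRNAs and both rRNAs. A gene is called here at a Benjamini-Hochberg adjusted p under 0.05 over the 16173 genes tested. MT-RNR2 was called lower with TK, and no other member was called for any form. That is 0 of 15 members for COM, where 6.36% of all genes tested were called, 0 for DB (10% of all genes), 0 for SPH (0.111%), 1 for TK (15.4%) and 0 for TN (11.7%). At an unadjusted edgeR p under 0.05 there were 0, 1, 1, 2 and 4 members in the same order. For COM, 20.4% of all genes had such a p. DESeq2 called 0, 0, 0, 1 and 0 members, where it called 8.12%, 12.7%, 0.254%, 17.1% and 13.9% of all genes. A joint test for any difference between the 6 groups called 1 member, MT-RNR2 (edgeR adjusted p = 0.023), where 23.2% of all genes were called. For COM, DB, TK and TN the share of members called was below that of all genes, and for SPH both were near 0.

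**Figure D3:**
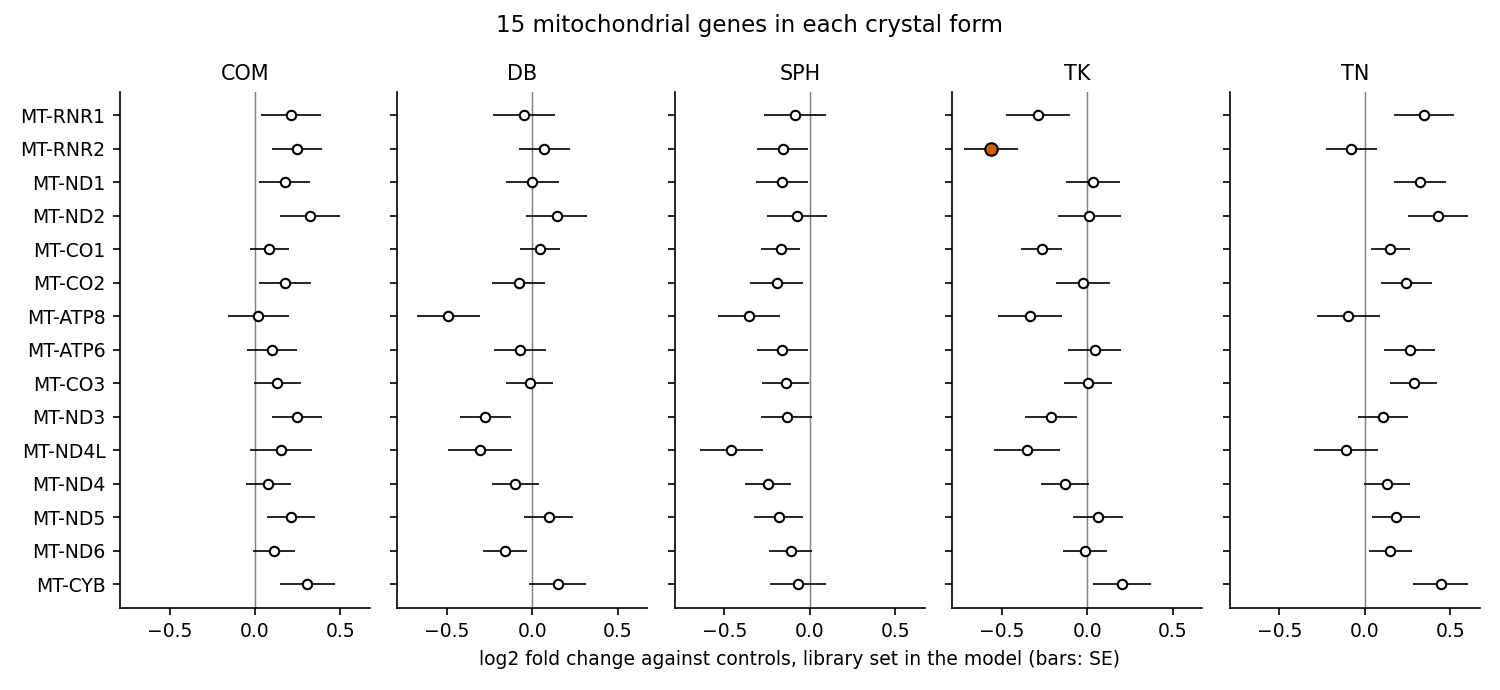
Set-adjusted log2 fold change of each of the 15 tested members against the controls for the 5 forms, with its SE; filled points were called. MT-RNR2 with TK, at -0.57, is the only filled point, and points for COM lie above 0 and for SPH below 0.

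The 7 complex I mRNAs encode membrane-arm subunits of the NADH dehydrogenase that feeds electrons into the chain. Their median log2 fold change was 0.17 for COM, 0.15 for TN, -0.01 for TK, -0.10 for DB and -0.16 for SPH, against medians over all genes tested of -0.02 to -0.00. None was called. For TN the values ran from -0.11 (SE 0.19) for MT-ND4L to 0.43 (SE 0.18) for MT-ND2. MT-ND2 measured 4292, 4524, 3102 and 3169.5 CPM in TN A to D, against 3372 and 3841 in the set 1 controls, 1158 to 2057 in the set 2 controls and 3169.7 in control G. TN A to C were above every control of their own set, and TN D was level with control G. Singly, TN A, B and C were above every control of their set for 37.4%, 38.5% and 30.5% of all genes. The call was missed (edgeR adjusted p = 0.111). MT-ND4L had the lowest value for SPH, -0.46 (SE 0.19, edgeR adjusted p = 0.665).

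MT-CYB, the mitochondrial subunit of complex III, had the highest fold change of any mRNA for TN. It measured 3899, 4029.5, 2572 and 3153 CPM in TN A to D, and 2861, 3264, 1713, 945, 1973, 1898 and 2777 CPM in controls A to G. Each TN library lay above all controls of its set. TN A, B and C singly held that position for 37.4%, 38.5% and 30.5% of all genes. The share of genes that hold it in all 4 TN libraries was not counted. The log2 fold change was 0.45 (SE 0.16), a fold of 1.36, with a 95% interval of 0.13 to 0.76, and it did not pass the threshold (edgeR adjusted p = 0.0724). Values for the other forms were 0.31 for COM, 0.20 for TK, 0.15 for DB and -0.07 for SPH. Without TN B, the library with liver transcripts, 0 of 15 members were called for TN, with log2 values of -0.28 to 0.45, a median of 0.22 and a smallest edgeR adjusted p of 0.101.

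The 3 complex IV mRNAs had medians of 0.24 for TN, 0.13 for COM, -0.02 for DB and TK and -0.17 for SPH on the log2 scale. MT-CO1 measured 8314, 8013, 7963 and 7902 CPM in TK A to D, and 9148, 8372, 9563 and 9576 CPM in the set 2 controls. The groups did not overlap. The fitted log2 fold change was -0.27 (SE 0.12, edgeR adjusted p = 0.134), and -0.18 in a fit to set 2 alone. MT-CO1 and MT-RNR2 were the 2 of 15 members with every TK library below every set 2 control, an arrangement met by 10.4% of all genes tested. MT-CO2 measured 3537 ± 50.1 CPM in TK and 3411 ± 798 in the set 2 controls, at a log2 fold change of -0.02 (SE 0.16). For MT-CO3 it was 0.00 (SE 0.14).

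Of the 2 ATP synthase mRNAs, MT-ATP6 had log2 fold changes between -0.16 (SPH) and 0.26 (TN). MT-ATP8, a small membrane subunit of the enzyme, had the lowest value of any member for DB, -0.49 (SE 0.18, edgeR adjusted p = 0.0895). It measured 213, 135, 123 and 244 CPM in DB A to D, against 226 and 266 in the set 1 controls, 173 to 247 in the set 2 controls and 309 in control G. Each DB library lay below every control of its set. DB A, B and C singly held that position for 34.2%, 33.0% and 24.4% of all genes. The share of genes that hold it in all DB libraries was not counted. DB B also had the longest mean fragment, 319.1 nt, a measure that went with MT-ATP8 within sets. With fragment length as a further term, the value was -0.17 (SE 0.16).

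All 15 log2 fold changes were positive for COM (0.02 to 0.32) and all 15 were negative for SPH (-0.46 to -0.07). Members of 1 library move together, so these are not 15 separate results, and no COM or SPH member was called. The smallest edgeR adjusted p was 0.293 for COM.

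MT-RNR2 was lower in cells given thick bipyramids than in controls. It measured 3274, 2979.7, 3108 and 3086 CPM in TK A to D, and 4049, 3601, 4736 and 3873 CPM in the set 2 controls C to F. All 4 TK libraries lay below all 4 of these controls. The means were 3112 ± 122 and 4065 ± 484 CPM (SD, n = 4 each). The set-adjusted log2 fold change was -0.57 (SE 0.16, edgeR adjusted p = 0.0158), where 7.33% of all genes were called lower. TK has no library outside set 2, so this value also rests on the set differences of the other forms. Within set 2 alone it was -0.39 (SE 0.11, edgeR adjusted p = 0.0282), where 6.13% of all genes were called lower. MT-RNR1 measured 442, 403, 425 and 411 CPM in TK and 475, 429, 563 and 476 CPM in the set 2 controls. TK A overlapped the lowest control, and the fold change of -0.29 (SE 0.19) was not called (edgeR adjusted p = 0.315).

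Set against mRNA, mitochondrial rRNA was low with TK. Over all libraries MT-RNR2 held 3579175 counts and MT-RNR1 444185. The ratio and the rRNA share below are therefore not separate from the MT-RNR2 result. The 2 rRNAs gave 12.96, 11.72, 12.64 and 12.28 counts per 100 counts of mitochondrial mRNA in TK A to D, and 15.3, 18.5, 16.7 and 13.6 in the set 2 controls. The groups did not overlap, at means of 12.4 ± 0.532 and 15.997 ± 2.06. The log2 difference was -0.36, with an exact permutation p of 0.0286, the smallest this design allows, and an adjusted p of 0.143 over the 5 forms. This ratio was chosen after the data had been seen. TN had a log2 difference of -0.28 (exact p = 0.0667, adjusted 0.167), at 11.8, 12.1, 15.1 and 10.2 rRNA counts per 100. COM had 0.06, DB 0.07 and SPH -0.03. In sets 1, 2 and 3 DB had -0.27, 0.45 and 0.14, SPH -0.04, 0.14 and -0.28, COM 0.04, 0.16 and -0.07, and TN -0.42, -0.07 and -0.33, so the values of DB, SPH and COM average sets of opposite sign. The rRNA share of all counts gave -0.34 for TK (exact p = 0.0286, adjusted 0.143).

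**Figure D4:**
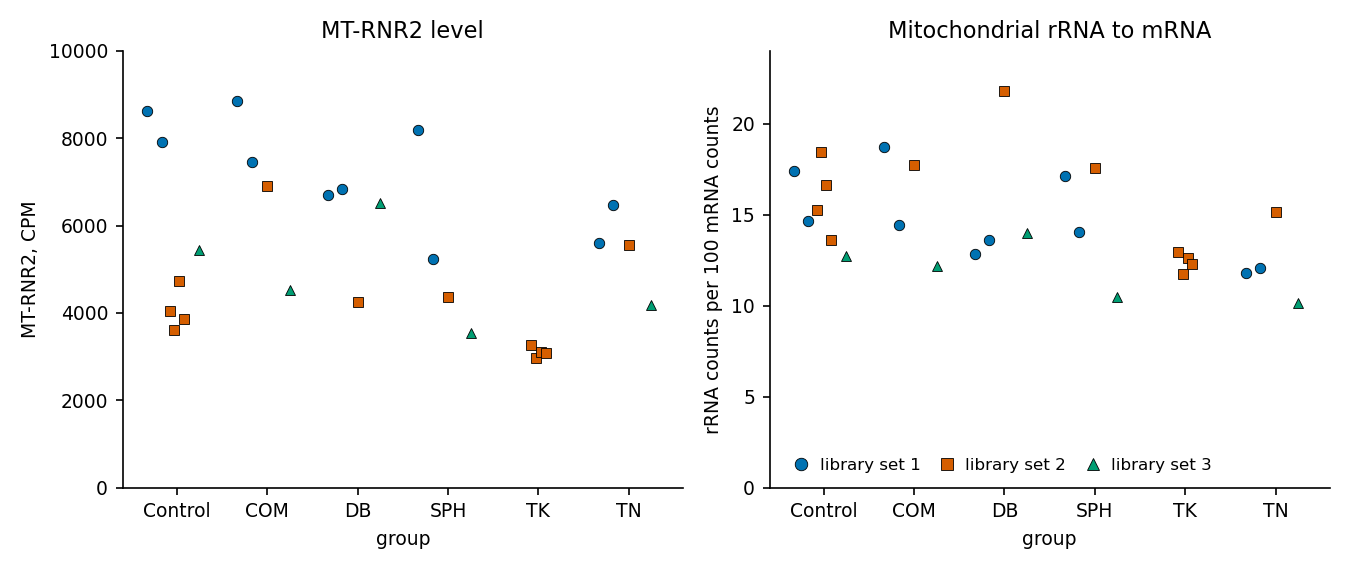
MT-RNR2 in CPM (left) and mitochondrial rRNA counts per 100 mitochondrial mRNA counts (right) for each library by group, with colour and marker giving the library set. The TK libraries lie below the 4 set 2 controls in each panel, and DB C is highest in the right panel at 21.8.

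Compared with each other at the same dose, the forms showed 2 called differences among the members, both in MT-RNR2. Over the 10 pairs, p-values were adjusted over genes within each pair and not over pairs. MT-RNR2 was higher with COM than with TK by 0.81 log2 (SE 0.18, edgeR adjusted p = 0.0033), where 14.5% of all genes were called. It was higher with DB than with TK by 0.64 (SE 0.19, edgeR adjusted p = 0.018), where 17.8% were called. No member was called between SPH and TK (5.6% of all genes called), COM and TN (5.03%), DB and TN (10.3%), SPH and TN (1.27%), COM and SPH (0.544%), DB and SPH (0.247%), COM and DB (0.198%) or TK and TN (0.216%). TK and TN are both bipyramids of COD and differ in thickness. MT-RNR2 was 0.49 log2 lower with TK than with TN, with a 95% interval from 0.13 to 0.84 lower (edgeR adjusted p = 0.317), so the interval does not show that they act alike.

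Among the controls, more members were called between library sets than for any form against controls. Set 2 controls were lower than set 1 controls for 14 of 15 members, where 7.46% of all genes were called lower. MT-CO1 measured 17869 and 18904 CPM in controls A and B and 8372 to 9576 CPM in controls C to F, a log2 difference of -1.004 (SE 0.08, edgeR adjusted p = 1.46e-07). MT-ND1 had the largest difference, -1.16 (SE 0.14, adjusted p = 2.59e-05), and MT-ND6 the smallest called one, -0.54 (SE 0.14, adjusted p = 0.0186). MT-ATP8 was not called, at -0.23 (SE 0.17, adjusted p = 0.426). For 14 members all set 2 controls lay below both set 1 controls, which held for 18.1% of all genes. For MT-CO1 every set 2 library lay below every set 1 library, crystals included, and 1.63% of all genes did so. Between set 3 and set 1, with 1 control in set 3, no member was called. Without control B the number called between sets 2 and 1 was 9.

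The sets also differed in fragment length. The mean fragment, read from deposited length minus effective length in genes over 3000 nt, was 269.3 and 263.2 nt in the set 1 controls and 197.6 to 235.9 nt in the set 2 controls. With effective length as an offset, MT-ATP8 was also called between these controls, at -1.04 (edgeR adjusted p = 0.0003). The part of fragment length in the other members' difference between sets was not tested apart from that offset.

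MT-ATP8, the shortest mRNA, took a smaller share of mitochondrial mRNA counts where fragments were longer, in set 1 and in set 2. For MT-ND4L and MT-ND3 this held in set 2 only among the sets tested. Over 30 relations (15 members in sets 1 and 2), 5 had an adjusted permutation p under 0.05 for Pearson's r. MT-ATP8 had r = -0.984 in set 2 (permutation p = 1e-05, adjusted 0.0003, the first being the smallest that 100000 permutations give; Spearman's rho = -0.916, p = 9e-05, adjusted 0.0027, n = 12). Leaving out TN C and control D, it was -0.970. In set 1 it had r = -0.845 (permutation p = 0.00526, adjusted 0.0402; rho = -0.830, p = 0.0044, adjusted 0.0601, n = 10), and -0.757 without DB B and TN A. MT-ND4L in set 2 had r = -0.706 (permutation p = 0.00683, adjusted 0.0410; rho = -0.755, p = 0.00601, adjusted 0.0601), and -0.662 without the same 2 libraries. MT-ND3 in set 2 had r = -0.808 (permutation p = 0.00536, adjusted 0.0402; rho = -0.685, p = 0.0166, adjusted 0.124), and -0.621 without them. MT-ND6 in set 2 had r = -0.842 (permutation p = 0.0041, adjusted 0.0402; rho = -0.448, p = 0.149, adjusted 0.406), but -0.149 without them, so it rests on those 2 libraries. In set 1, MT-ND3 had r = -0.747 (permutation p = 0.0165, adjusted 0.0827; rho = -0.588, p = 0.0809, adjusted 0.347), and -0.423 without DB B and TN A. MT-ND4L there had r = -0.662 (permutation p = 0.0326, adjusted 0.122; rho = -0.588, p = 0.0795, adjusted 0.347), and -0.231 without them. MT-CO2, a longer gene, had r = 0.466 in set 2 (permutation p = 0.125, adjusted 0.375; rho = 0.476, p = 0.121, adjusted 0.402).

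**Figure D5:**
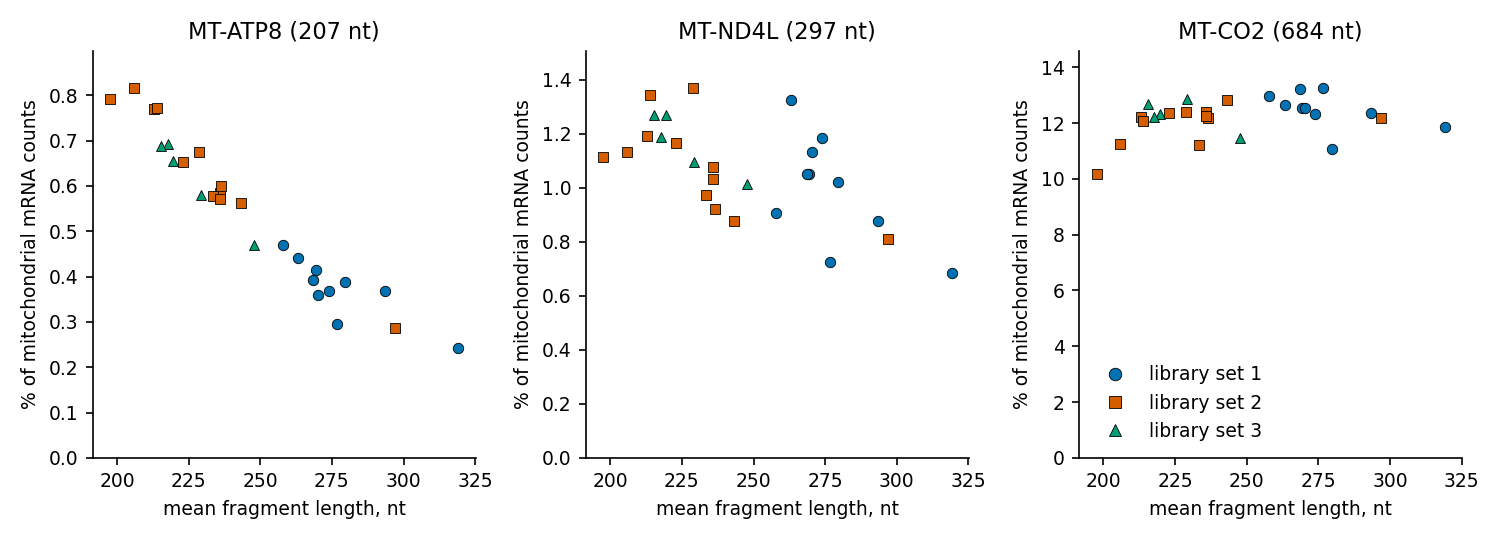
Share of mitochondrial mRNA counts taken by MT-ATP8, MT-ND4L and MT-CO2 against the mean fragment length of the library in nt, coloured by library set. MT-ATP8 falls from 0.817% to 0.243% of mRNA counts across the libraries, and MT-CO2 shows no such slope.

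Some single libraries stood apart from the controls of their set for most members. COM C was above all 4 set 2 controls for 15 of 15 members, a position held by 25.5% of all genes in that library. Within set 2, COM C was called higher for MT-RNR2 (0.77 log2, edgeR adjusted p = 0.0488) and MT-CO1 (0.49, adjusted p = 0.0344), where 0.346% of all genes were called higher. The lone library was taken to vary like the other groups. TN C was above all 4 set 2 controls for 11 members (30.5% of genes) and below for MT-ND6 and MT-ATP8. It was called higher within set 2 for MT-ND1 (0.73), MT-ND2 (0.82) and MT-CO1 (0.55, edgeR adjusted p = 0.0061), where 3.5% of all genes were called higher. TN C has the longest mean fragment of set 2, 297.0 nt against at most 243.2 nt, so its set is uncertain.

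The TN difference from controls itself differed between sets 2 and 1 for MT-CO1, by 0.65 log2 (edgeR adjusted p = 0.014), and MT-RNR2, by 0.90 (adjusted p = 0.0304), where 5.81% of all genes were called. SPH B lay below both set 1 controls for 15 of 15 members (31.9% of genes), while SPH A lay below them for 5 and above them for 5. DB C lay below all 4 set 2 controls for 8 members (24.4% of genes). Its MT-CO1 was 7282 CPM against 17350.1 to 17958 in the other DB libraries, of sets 1 and 3.

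The nuclear partners of these genes were read from fixed lists. The 76 nuclear subunits of oxidative phosphorylation were lower with DB: 32 were called lower and 0 higher, 75 of 76 log2 values were negative, and their median was -0.32 against -0.00 for all genes. Of all genes tested, 4.1% were called lower with DB. ATP5MC1, part of the rotor of ATP synthase, stood at 70.9 ± 6.96 CPM with DB and 105 ± 7.82 in controls (log2 -0.57, SE 0.09, edgeR adjusted p = 0.000444). COX6B1 of complex IV had -0.52 (SE 0.10, adjusted p = 0.00114) and NDUFB4 of complex I -0.38 (SE 0.08, adjusted p = 0.00319). Summed over the list, DB A to D held 7354, 7416, 8901 and 7826 CPM, and controls A to G 9305, 7774, 9710, 11738, 10291, 9560 and 9508 CPM. Each DB library lay below every control of its set. In set 2 so did COM C (8709), SPH C (8966), TK B (8892), TK D (9096) and TN C (8279). In set 3 so did COM D (9442) and TN D (9365), and in set 1 no library of another form did.

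That count depended on the fit. It was 3 with the replicate block in place of the set, 5 with fragment length as a further term, 14 with effective length as an offset, 17 with no set term and 0 in set 1 or set 2 alone. It was 16 without DB A, 13 without DB B, 8 without DB D, 50 without control B and 42 by DESeq2. Within sets 1, 2 and 3 the medians were -0.24, -0.23 and -0.27, with 1, 0 and 1 called. No mitochondrial mRNA of the same complexes was called with DB. In the other forms the list had 1 gene called lower for COM, TK and TN each, and 0 of 76 for SPH (edgeR, 5 at an unadjusted p under 0.05, DESeq2 0). In set 2 against set 1 controls, 19 nuclear subunits were higher (median 0.27), where 6.47% of all genes were called higher. That count was 2 without control B, 9 without control D, 8 with effective length as an offset, 31 with plain library totals or no low-count filter, and 29 by DESeq2. Within set 2, 15 were lower in TN C (median -0.36), where 1.55% of all genes were called lower.

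Of 16 genes that transcribe and replicate mitochondrial DNA, TK had 4 called higher and 1 lower, where 8.04% of all genes were called higher. They included TFAM, which packages the genome and starts transcription (79.0 ± 2.55 against 58.9 ± 6.22 CPM, log2 0.35, SE 0.08, edgeR adjusted p = 0.00291), TFB2M, its partner at promoters (0.26), and MTERF1, a transcription termination factor (0.27). The control CPM of TFAM is the mean of all 7 controls, of all library sets, while TK lies wholly in set 2. Only the log2 values are set-adjusted. DB had 1 higher and 3 lower, among them the helicase TWNK (-0.37), the RNA polymerase POLRMT (-0.29) and SSBP1, which binds single-stranded DNA (-0.33). Without crystals, TWNK and SSBP1 were 0.28 and 0.43 log2 higher in set 2 than in set 1 controls. COM had TWNK lower (-0.25). TN had 2 lower, the DNA polymerase POLG (-0.26) and the topoisomerase TOP1MT (-0.28). SPH had 0 (edgeR, 0 at an unadjusted p under 0.05, DESeq2 0). Called in either direction, that is 4 of 16 for DB (10% of all genes), 1 for COM (6.36%), 2 for TN (11.7%) and 5 for TK (15.4%). Leaving out 1 library gave 1 (without DB B) to 5 for DB, 0 to 3 (without COM C) for COM, 1 to 4 (without TN B) for TN and 2 (without control E or TK A) to 5 for TK. Leaving out COM A, B or D, control A or F, or TK D gave 0 for COM. Leaving out TN A, C or D, control A, F or G, or COM B gave 1 for TN. Leaving out DB A, DB C or any of controls D to G gave 2 for DB, and leaving out control C or TK B, C or D gave 3 for TK. The DB count was 1 under the replicate block and the TK count 3.

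Of 20 genes that process or degrade mitochondrial RNA, TK had 5 called higher and 0 lower, led by FASTKD5, needed to release mRNAs without flanking tRNAs (0.46, SE 0.10), PDE12, which trims poly(A) (0.33), and PNPT1, the RNA phosphorylase of the degradosome (0.31). TN had 6 higher and 0 lower, led by the poly(A) polymerase MTPAP (0.25), the helicase SUPV3L1 (0.26) and PDE12 (0.27), where 6.84% of all genes were called higher. Under the alternatives the count of higher genes ranged from 0 (without TN A, under the replicate block and in set 2 alone) to 6 for TN, and from 3 to 6 for TK. DB had 1 lower, SLIRP, which stabilises mitochondrial mRNAs (-0.60, SE 0.16, edgeR adjusted p = 0.0186), a call lost without DB B or DB D, under the replicate block, with either length term and within set 1 or set 2 alone. Without crystals, SLIRP was 0.78 log2 higher in set 2 than in set 1 controls. COM had 0 (1 at an unadjusted p under 0.05, DESeq2 0) and SPH 0 (0 and 0).

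Of 24 mitochondrial aminoacyl-tRNA synthetases and related enzymes, COM had 1 higher and 1 lower, DB 1 and 3, TK 2 and 1, TN 2 and 1 and SPH 0 (edgeR, 1 at an unadjusted p under 0.05, DESeq2 0). Against these counts stand the shares of all genes past the same threshold: 6.36% (COM), 10% (DB), 15.4% (TK) and 11.7% (TN). Leaving out 1 library gave 1 (without DB A, C or D) to 5 for DB in both directions together, and 2 without DB B or control A or G. It gave 0 (without TK C), 1 (without TK A or D) or up to 5 (without SPH D or TN D) for TK. The DB count was 1 under the replicate block, as was that of COM. GARS1, the glycine enzyme shared with the cytosol, was higher with COM (0.43), DB (0.37) and TN (0.55), comparisons that share the controls. Without crystals, GARS1 was 0.63 log2 higher in set 2 than in set 1 controls. AARS2, the alanine enzyme, was lower with COM (-0.39) and TN (-0.31). Of 11 regulators of mitochondrial biogenesis, 0 were called for any form by edgeR or DESeq2, and 3 each had an unadjusted p under 0.05 for COM, DB, TK and TN and 0 for SPH.

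Nuclear copies of mitochondrial genes could take some reads. MTATP6P1, identical to MT-ATP6 at 671 of 681 bases, held between 6.66% (DB B) and 31.5% (control D) as many counts as MT-ATP6, with a median of 12.4%. MTCO1P12 held a median of 0.420% of the MT-CO1 count and MTRNR2L1 0.993% of the MT-RNR2 count. With the copies' counts added to their members, the number of members called was the same in each comparison of a form with controls. MT-ATP6 is the member whose level is most uncertain on this account.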

How the data were processed

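PolyA-selected RNA was sequenced in 27 libraries. Each library has a table deposited by the authors that holds expected counts, TPM and lengths of each gene, per the file headers. Trim Galore, Bowtie2, RSEM and GRCh38 are named in the submitters' processing notes, without versions. The annotation release and strand setting are not stated there. The deposited TPM values were used for the order of levels and 1 alternative only. Expected counts were rounded before testing.

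The 37 members were matched by Ensembl identifier to GENCODE 29 (GRCh38). The main test was the quasi-likelihood F-test of edgeR 4.0.16 in R 4.3.3, with group and library set as terms, over all 27 libraries. filterByExpr on the 6 groups (minimum count 10) left 16173 genes, TMM scaling was used, and p-values were adjusted by Benjamini-Hochberg over all of them. A fit with group and set as 1 factor gave the values within sets and between controls. Shares were tested by exact permutation within sets. Relations with fragment length used 100000 permutations. DESeq2 1.42.0 was an alternative. Scripts were tested on simulated counts. Depth ran from 13115669 to 38672521 counts, and no tRNA gene passed the low-count filter. The tRNA genes have an effective length of 0 in every library. The parts of depth, gene length and polyA selection in their low counts were not tested. The 95% intervals of fold changes are 1.96 SE of the edgeR fit and hold the spread between libraries, while the limit given for a count of 0 covers counting error only.

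The mRNA and rRNA members are named in full, tRNA genes where a library held at least 10 counts, and other lists by at most 3 called genes a comparison with the smallest p. The members, lists and tests were chosen with earlier results of these data known. Same-letter libraries of different groups had correlated deviations of -0.158 to 0.446 (median 0.0685 over 60 pairs), so letters were not taken to pair libraries. Replicate libraries differed beyond sampling noise in all 51 pairs (chi-square over degrees of freedom 2.46 to 70.4).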

Additional observations from a re-analysis of the deposited data

Results flagged for a closer look

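DB C lay far from the other 3 DB libraries in 6 of the 18 values checked in that group. Over all 6 groups, of 4 or 7 libraries each, 108 such sets of values were checked and no other library was picked out. Chance gives about 1 in 20, and the 18 values come from the same libraries. Its MT-RNR1 was 375.54 CPM against 716.99 to 772.47 in the others. Its MT-RNR2 was 4250.2 CPM against 6523.3 to 6844.9. Its MT-CO1 was 7282.4 CPM against 17350.1 to 17958, and its MT-ATP6 1269.5 CPM against 3149 to 3295. Mitochondrial rRNA took 0.47982% of its counts against 0.70814% to 0.75046%, and stood at 21.774 counts per 100 mRNA counts against 12.825 to 14.001. DB C is the only DB library of set 2, where controls were also low, and set and library cannot be told apart within DB.

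The difference between TN and controls had opposite signs in set 1 (TN A and B) and set 2 (TN C alone). MT-RNR2 had a log2 fold change of -0.45 in set 1 and 0.45 in set 2, and the set 2 value was 0.9029 higher by edgeR's test of the difference (adjusted p = 0.0304). MT-CO1 had -0.09 in set 1 and 0.55 in set 2, which was 0.6465 higher (adjusted p = 0.014). TN C is also the library whose set is uncertain.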

How the results depend on the processing

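MT-RNR2 stayed lower with TK under all 39 alternatives, at -0.86 (replicate block) to -0.38 (set 2 alone) on the log2 scale, with adjusted p of 8.29e-08 to 0.049. All 4 TK libraries are in set 2. Fits with no set term, the replicate block among them, carry the difference between sets into the TK value. Their lower values therefore say nothing about stability. The mRNA share could not be called for 1 form alone where labels were permuted within sets. There, the lack of calls under the alternatives says nothing about stability. With labels permuted over all sets, 1 form could have been called. None was, at adjusted permutation p of 0.424 to 0.821, but those values carry the difference between sets. With TN C placed in set 1 the log2 difference in mRNA share for TN was -0.08.

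Numbers of members called did move. Without the low-count filter they were 7 for TN, 4 for TK, 3 for DB, 2 for SPH and for COM, 15 for any of 6 groups and 48 over the pairs of forms. The shares of all genes called were then 5.24% for TN, 5.85% for TK, 4.49% for DB, 0.353% for SPH, 3.07% for COM, 12% for any group and 2.94% over the pairs. In set 2 alone they were 3 for COM, 2 for TK, 6 for TN, 13 for any group and 25 over the pairs, where MT-RNR2 turned from -0.08 to 0.45 with TN (adjusted p = 0.0282). The shares of all genes were 0.839%, 14.9%, 7.6%, 14.8% and 2.59% in that order. With the replicate block by library letter in place of the set, TK had 2, any group 5 and the pairs 29 (15.6%, 23.9% and 8.46% of all genes). For the other forms it called 0 members, and it cut the nuclear oxidative phosphorylation subunits called with DB from 32 to 3. Fragment length as a further term gave 2 for TK, DESeq2 gave 2 for any group, and dropping the set term gave 10 over the pairs. All pair calls under the replicate block or with no set term were with TK, whose libraries are all in set 2. TK and set cannot be told apart in those fits. The cause of these moves was not tested. MT-CO1 was the second TK member under the replicate block (-0.67), set 2 alone (-0.18), fragment length (-0.33) and without DB C (-0.30).

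Leaving out each library in turn gave 0 for COM and SPH, 0 to 1 for DB, 1 to 2 for TK, 0 to 2 for TN, 0 to 5 for any group, 1 to 4 for the pairs and 9 to 14 between set 2 and set 1 controls. The joint test called 0 without COM C, TK B, TK C or TK D, and 5 without DB C. Without DB C, TN had 2 called (MT-CYB and MT-ND2), and without COM C, DB had MT-ATP8 called. The tRNA genes, with an effective length of 0, held too few counts for any test. The lone libraries of COM, DB, SPH and TN in sets 2 and 3 limit every value within a set.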
